A study of Mus musculus with 50 samples.

Results

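Serpins are a large family of serine protease inhibitors and related proteins, and their behaviour was followed in mouse embryonic stem cells that lack histone methyltransferases. Every row whose gene symbol begins with Serpin, a clade letter from a to i and a digit was taken, which gave 63 of the 24412 genes in the first of 2 expression tables and the same 63 of 24413 in the second. The 63 were put into 4 blocks by clade and position. A cluster on chromosome 12 held 24 clade a genes. Clade b clusters held 12 genes on chromosome 1 and 15 on chromosome 13. The other 12, of clades a and c to i, are called dispersed. Clusters were sought only in clades a and b, from starts within 500 kb. Neighbours of other clades, such as Serpinf1 and Serpinf2, therefore count as dispersed. Polyadenylated RNA was sequenced from 50 libraries of TT2 embryonic stem cells, 2 libraries for each of 25 groups. The first table (18 libraries) held control cells, Setdb1-KO, Suv39h1/2-DKO, Suv39h1/2 Setdb1-TKO, G9a-KO, G9a Setdb1-DKO, G9a Suv39h1/2-TKO, the quadruple knockout of G9a, Suv39h1, Suv39h2 and Setdb1 (QKO), and a QKO that also lacks Dux (Dux-KO QKO). The second table (32 libraries) held the same 8 genotypes from control to QKO in cells that all lacked endogenous Dux and carried a doxycycline-inducible Dux transgene (Tet-on-Dux), the controls included, each without and with doxycycline. The dose label was 0.2 for control and Setdb1-KO and 1 for the other 6 genotypes, in a unit that the labels do not give. Titles of every group that lacks Setdb1 carried the tag OHT and all others NT, so Setdb1 loss and whatever OHT stands for cannot be told apart. By the titles, each Setdb1-lacking group but Dux-KO QKO shares its line name with the group that keeps Setdb1 and otherwise has the same genotype. Dux-KO QKO and the lines of the other losses each have a line name of their own, so line and genotype cannot be told apart there. The labels do not say that the 2 libraries of a group came from separate cultures, so p-values measure the spread between these libraries, which may be technical.

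A typical serpin presents a flexible loop as bait to a protease, is cut, and then springs into a new fold that traps the protease in a covalent complex. Clade a serpins are mostly secreted plasma inhibitors made by the liver, clade b serpins stay inside cells and restrain proteases that leak from granules or lysosomes, and a few members have lost inhibition and carry hormones, fold collagen or act as secreted factors. Mouse clusters of clades a and b grew by repeated gene duplication, so several members are nearly identical copies. SETDB1, SUV39H1, SUV39H2 and G9a (gene symbol Ehmt2) methylate lysine 9 of histone H3, a mark of silent chromatin, and DUX is a transcription factor of the 2-cell embryo.

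The RefSeq sequence in front of the start sites (build GRCm38.p6) differed sharply between the serpins on which the results turn. A promoter entry, running from 250 bases before to 50 bases after a start, was matched for 52 of the 63 serpins. The 250 bases before the start are shown for 6 genes, 5′ to 3′ on the gene's strand, with every CG dinucleotide in capitals. The first pair, Serpinb9b (chr13:33027164-33027413, plus strand) and Serpinb6c (chr13:33905192-33905441, minus strand), are shown because their levels separated libraries with and without G9a.
Serpinb9b: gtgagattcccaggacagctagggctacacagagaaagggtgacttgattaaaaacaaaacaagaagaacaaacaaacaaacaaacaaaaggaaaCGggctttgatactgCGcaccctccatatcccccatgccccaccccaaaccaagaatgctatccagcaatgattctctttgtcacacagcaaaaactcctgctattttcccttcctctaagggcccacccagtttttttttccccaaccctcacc
Serpinb6c: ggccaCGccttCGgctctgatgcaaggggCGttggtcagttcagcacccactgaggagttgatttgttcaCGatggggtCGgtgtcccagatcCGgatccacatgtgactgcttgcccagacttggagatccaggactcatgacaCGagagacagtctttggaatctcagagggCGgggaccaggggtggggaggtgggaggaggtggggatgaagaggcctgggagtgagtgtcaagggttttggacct
Serpinb9e (chr13:33249358-33249607), Serpinb9f (chr13:33323827-33324076) and Serpinb9g (chr13:33484540-33484789), all on the plus strand, are shown because they are near copies of each other.
Serpinb9e: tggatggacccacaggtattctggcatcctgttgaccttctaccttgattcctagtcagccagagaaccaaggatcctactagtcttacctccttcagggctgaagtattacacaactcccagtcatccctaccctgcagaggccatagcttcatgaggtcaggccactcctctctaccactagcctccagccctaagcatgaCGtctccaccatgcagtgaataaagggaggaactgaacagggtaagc
Serpinb9f: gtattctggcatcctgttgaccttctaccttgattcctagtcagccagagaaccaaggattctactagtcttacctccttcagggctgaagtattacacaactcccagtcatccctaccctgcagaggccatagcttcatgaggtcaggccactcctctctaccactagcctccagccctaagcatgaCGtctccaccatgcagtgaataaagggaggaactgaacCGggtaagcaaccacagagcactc
Serpinb9g: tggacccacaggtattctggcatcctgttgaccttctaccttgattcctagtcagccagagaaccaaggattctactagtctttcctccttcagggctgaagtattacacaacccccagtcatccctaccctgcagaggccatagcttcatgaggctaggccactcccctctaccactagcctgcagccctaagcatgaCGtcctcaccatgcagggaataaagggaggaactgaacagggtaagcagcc
Serpine2 (chr1:79858666-79858915, minus strand) is shown as the gene with the largest change and the densest CG content of the family.
Serpine2: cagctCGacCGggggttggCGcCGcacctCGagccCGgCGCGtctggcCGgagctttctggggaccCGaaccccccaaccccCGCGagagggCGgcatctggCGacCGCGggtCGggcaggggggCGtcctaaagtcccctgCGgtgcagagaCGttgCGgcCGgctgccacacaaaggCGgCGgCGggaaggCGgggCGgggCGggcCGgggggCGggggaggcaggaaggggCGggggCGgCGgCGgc
The Serpine2 stretch holds 34 CG dinucleotides in 250 bases, Serpinb6c holds 8, Serpinb9b and Serpinb9f hold 2 each, and Serpinb9e and Serpinb9g hold 1 each. By the GENCODE M21 gene models the 4 Serpinb9-type stretches are intergenic, the Serpinb6c stretch lies wholly in an intron of Serpinb6c, and the Serpine2 stretch lies within the Serpine2 model with 31 of its bases in exons.

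Slid against each other without gaps by up to 40 bases, the Serpinb9e and Serpinb9f stretches matched at 99.1% of positions, Serpinb9e and Serpinb9g at 95.9%, and Serpinb9f and Serpinb9g at 95.4%. Serpinb9b matched these 3 at only 31.8% to 32.8%. In the whole 300-base window the median serpin had 3 CG dinucleotides, against 7 over all 32851 entries. The medians were 4 for the 17 matched clade a genes of chromosome 12, 0 for the 11 clade b genes of chromosome 1, 3 for the 14 clade b genes of chromosome 13 and 5 for the 10 dispersed genes. Windows with 10 or more CG dinucleotides made up 43.5% of all entries and 6 of the 52 serpin windows. The motif TATAAA, searched on both strands, was present in 13.6% of all entries and in 15 of 52 serpin windows, 7 of them among the 11 windows of the chromosome 1 cluster. A motif match describes the letters of the window only.

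**Figure D1:**
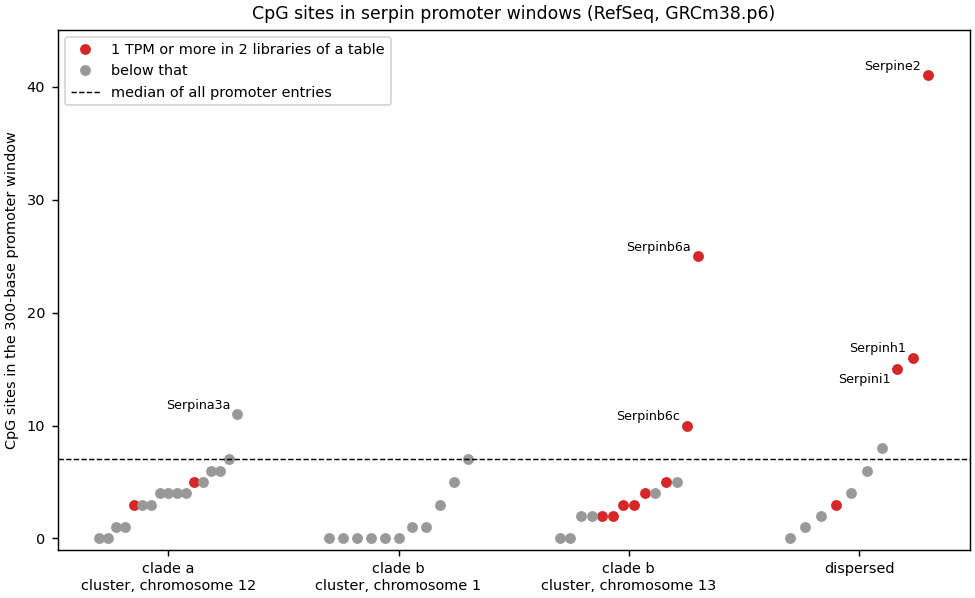
CG dinucleotides (count, vertical axis) in the 300-base RefSeq promoter window of each of the 52 matched serpins, 1 point per gene, grouped by block, in red where at least 2 libraries of a table reached 1 TPM and grey otherwise; the line marks the median of all entries, 7. Most cluster genes sit below the line, and Serpine2, Serpinb6a, Serpinh1, Serpini1, Serpina3a and Serpinb6c lie at 10 or more.

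The depth of the libraries is unknown, since the deposited values are TPM, transcript abundances scaled for length and to a fixed total. Between 11855 and 13274 genes reached 1 TPM in a library of the first table and between 11742 and 12690 in the second. Ehmt2 was at 83.6 and 91.1 TPM in the first table's controls and at 7.38 to 30.2 TPM in G9a-lacking libraries, and Setdb1 fell from 48.8 and 53.2 TPM to 19.8 to 36.5 TPM in Setdb1-lacking ones. Suv39h1 was at 34.0 and 31.7 TPM in control and 11.1 to 22.9 TPM in libraries labelled as lacking it, and Suv39h2 at 21.0 and 20.7 against 12.1 to 17.1 TPM. The Suv39h1/2-DKO libraries (22.9 and 22.4 TPM of Suv39h1, 14.0 and 14.9 of Suv39h2) overlapped G9a Setdb1-DKO, which is labelled as keeping both (21.3 and 24.9, 14.4 and 19.1). The labels do not give which part of each gene was deleted, so RNA levels are a limited check. Of the 32 second-table libraries, 6 stood apart in the mean log2 level of Snhg genes, non-coding hosts of small nucleolar RNAs, with values above 4: control replicate 1, Setdb1-KO replicate 2 and G9a Setdb1-DKO replicate 2 without doxycycline, and Setdb1-KO, G9a-KO and G9a Setdb1-DKO replicate 2 with it. The other second-table libraries lay between 2.40 and 3.26. Every first-table library lay between 4.30 and 4.87. The 6 were thus close to the level of the first table, and the other second-table libraries were below it. Any comparison between the tables also carries this difference, whose cause was not tested. Embryonic stem cell markers were abundant in every first-table library, with a sum of 6556 to 14807 TPM over 9 genes.

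Most of the family was silent or nearly so in these cells. A gene was tested where at least 2 libraries of its table reached 1 TPM, which held for 19 serpins in each table and 20 in either: 5 clade a genes of chromosome 12, 9 clade b genes of chromosome 13, 6 dispersed genes and none of chromosome 1. A low member could enter this way only through the libraries in which it is high, so the tested members are not the family as a whole. Another 14 members, 8 of clade a and 6 of the chromosome 1 cluster, were listed at 0 in all 50 libraries. Among them were Serpina6, the corticosteroid carrier, Serpina5, the protein C inhibitor, and Serpinb3a to Serpinb3c. The plasma inhibitors Serpinc1 (antithrombin), Serpind1 (heparin cofactor II) and Serpinf2 (antiplasmin) and the thyroxine carrier Serpina7 stayed below 1 TPM in every library. Serpinb5, called maspin, peaked at 1.12 TPM.

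The blocks carried very different amounts of RNA. Summed over a block, group means in the first table ran from 188 to 501 TPM for the dispersed genes, from 90.7 to 161 TPM for the chromosome 13 cluster, from 2.76 to 69.9 TPM for the chromosome 12 cluster and from 0.0378 to 1.85 TPM for the chromosome 1 cluster. The second table's sums ran from 131 to 385, from 138 to 188, from 4.21 to 45.3 and from 0.0455 to 1.09 TPM. In the controls of each table Serpinh1 and Serpinb6a made up most of the dispersed and chromosome 13 sums. Between 9 and 17 serpins were at 1 TPM or more in both libraries of a first-table group, and between 8 and 17 in a second-table group.

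**Figure D2:**
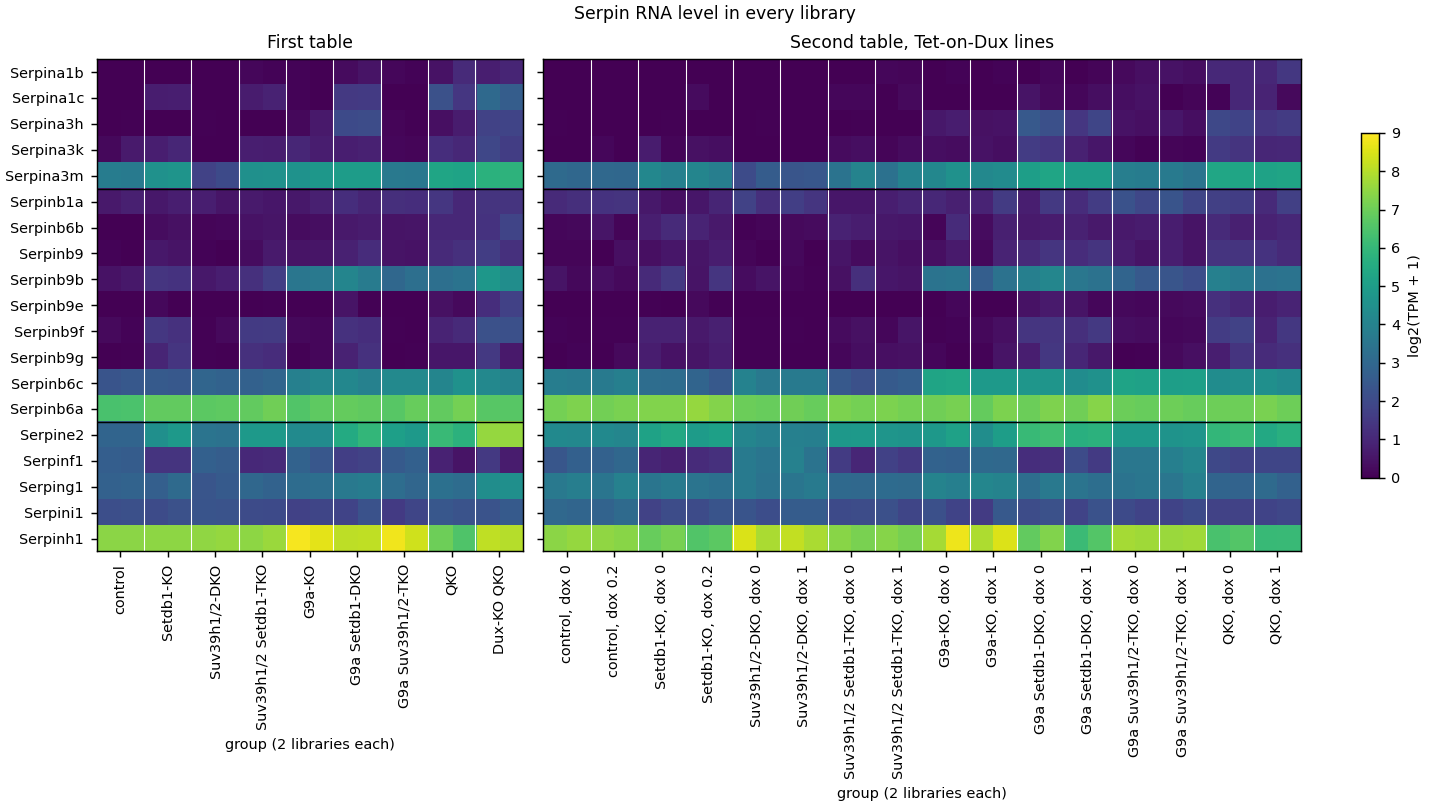
Level of 19 of the 20 tested serpins (rows, by block) in all 50 libraries (columns, by group), as colour on a log2(TPM+1) scale; the 2 tables were normalised separately and are set apart. Serpinh1 and Serpinb6a are high throughout, while Serpinb9b and Serpinb6c step up in the G9a-lacking groups of both tables.

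The question behind the first table was what each methyltransferase loss does on its own and in combination, and serpins were among the genes called in every one of its comparisons with control. A gene was called where limma gave an adjusted p under 0.05, by Benjamini-Hochberg over all tested genes, and a change of at least 1 on the log2(TPM+1) scale. That scale is used for all changes below and understates the change of low genes. Calls over all tested genes are given first, as the background, with the 19 tested serpins beside them. In Setdb1-KO 6.28% of all tested genes were called, 4.12% higher and 2.16% lower, and 5 serpins, 4 higher and 1 lower. The Suv39h1/2-DKO called 0.541%, with 0.137% higher and 0.404% lower, and 1 serpin, lower. G9a-KO called 9.26%, with 5.52% higher and 3.74% lower, and 4 serpins, all higher. For Suv39h1/2 Setdb1-TKO 6.99% were called, 4.74% higher and 2.25% lower, and 4 serpins, 3 higher and 1 lower. The G9a Setdb1-DKO called 14.4%, with 9.58% higher and 4.8% lower, and 9 serpins, all higher. The G9a Suv39h1/2-TKO called 6.72%, with 4.65% higher and 2.07% lower, and 4 serpins, all higher. QKO called 15.6%, with 10.1% higher and 5.42% lower, and 8 serpins, 7 higher and 1 lower. Set against control, Dux-KO QKO called 21.2%, with 16.8% higher and 4.31% lower, and 15 serpins, 14 higher and 1 lower. In each of these 8 comparisons but Suv39h1/2-DKO, higher calls took a larger share of the tested serpins than of all tested genes, which was not tested. Low serpins entered the test only through libraries in which they were high, so this difference can be partly built in. Serpinb9e, for example, reached 1 TPM in only 2 first-table libraries, both of Dux-KO QKO.

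In the second table, without doxycycline and with Dux removed throughout, 19 serpins were again tested. Setdb1-KO called 2.52% of all tested genes, 1.67% higher and 0.847% lower, and 3 serpins, 1 higher and 2 lower. Suv39h1/2-DKO called 1.56%, with 0.239% higher and 1.32% lower, and 1 serpin, higher. For G9a-KO 7.98% were called, 3.07% higher and 4.91% lower, and 3 serpins, all higher. The Suv39h1/2 Setdb1-TKO called 3.49%, with 1.15% higher and 2.34% lower, and 2 serpins, both lower. G9a Setdb1-DKO called 13.2%, with 7.35% higher and 5.88% lower, and 10 serpins, 9 higher and 1 lower. G9a Suv39h1/2-TKO called 6.61%, with 2.99% higher and 3.62% lower, and 3 serpins, 2 higher and 1 lower. In QKO 14% were called, 6.59% higher and 7.42% lower, and 12 serpins, 11 higher and 1 lower. Serpina1b and Serpinb9e, both among the 11, reached 1 TPM in only 3 and 2 libraries of this table, all of QKO. They entered the test only through that group, so their calls in it are partly built in. Comparisons within a table share their control libraries. The tables have separate controls, and no serpin called in both tables for the same genotype went in opposite directions. For G9a Setdb1-DKO 7 serpins were called in the same direction in both tables, 77.8% of the first table's calls and 70% of the second's. Of these, Serpinb9f in the first table fell just below a change of 1 without control replicate 2 (0.992) or G9a Setdb1-DKO replicate 1 (0.998). Serpinb9g was at 0.85 in the first table without G9a Setdb1-DKO replicate 2, and in the second at 0.71 without that group's replicate 2, 0.66 without the 6 libraries high in Snhg genes and 0.98 with median-ratio scaling. Leaving out the 6 kept only 1 control and 1 G9a Setdb1-DKO library without doxycycline. For Setdb1-KO the shared calls were Serpine2, at 0.97 in the second table without Setdb1-KO replicate 2, and Serpinf1. For G9a-KO and G9a Suv39h1/2-TKO they were Serpinb6c and Serpinb9b, for Suv39h1/2 Setdb1-TKO Serpinf1, and for QKO Serpina3m, Serpinb9, Serpinb9b and Serpine2. No Suv39h1/2-DKO call was shared.

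**Figure D3:**
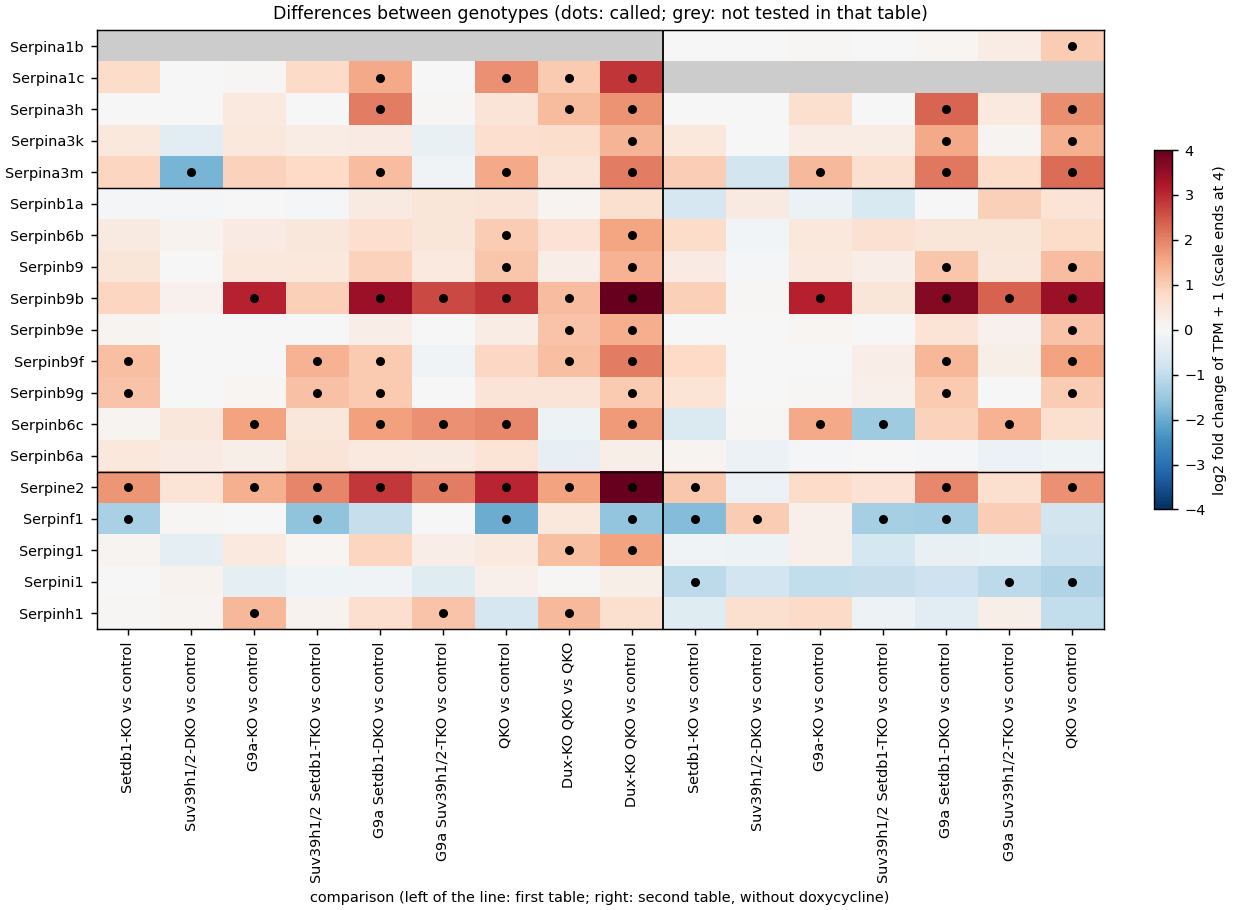
Change of 19 tested serpins (rows) in each comparison between genotypes (columns; first table left, second table without doxycycline right), as colour on the log2(TPM+1) scale, with a dot where the gene was called. Serpinb9b is called in every comparison with control in which G9a was lost, and Serpinf1 is the only serpin called lower in Setdb1-KO in both tables.

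Among secreted inhibitors, Serpine2, also known as protease nexin-1 and an inhibitor of thrombin and of plasminogen activators, changed most. It lies at chr1:79794197-79861180 on the minus strand. Its level was 6.48 and 6.47 TPM in the 2 control libraries, 10.05 and 9.61 in Suv39h1/2-DKO, 18.7 and 19.3 in G9a-KO, and 21.5 and 27.8 in Setdb1-KO. It was 28.3 and 27.3 TPM in Suv39h1/2 Setdb1-TKO, 32.7 and 27.6 in G9a Suv39h1/2-TKO, 43.9 and 61.0 in G9a Setdb1-DKO, 68.0 and 54.0 in QKO, and 189 and 189 in Dux-KO QKO. All 16 knockout libraries of the first table were above both of its controls. The changes against control were 1.77 ± 0.16 (SE) in Setdb1-KO (limma adjusted p = 1.05e-06), 1.42 ± 0.16 in G9a-KO (adjusted p = 6.84e-06), 3.04 ± 0.16 in QKO (adjusted p = 8.03e-10) and 4.67 ± 0.16 in Dux-KO QKO (adjusted p = 6.07e-12). Serpine2 in the second table's controls was at 18.1 and 17.3 TPM, and it reached 35.6 and 42.3 TPM in Setdb1-KO, 65.3 and 73.8 in G9a Setdb1-DKO and 61.6 and 68.1 in QKO. The G9a-KO libraries there, at 26.6 and 34.1 TPM, lay above the controls, but the gene was not called. Serpine2 was also not called there in Suv39h1/2-DKO, Suv39h1/2 Setdb1-TKO or G9a Suv39h1/2-TKO. Its lowest change of any knockout against control, -0.22, was in the second table.

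The other secreted inhibitors outside the clusters moved in fewer groups. Serping1, the inhibitor of complement C1, stood at 5.97 and 6.29 TPM in control, at 11.4 and 12.6 in G9a Setdb1-DKO and at 20.2 and 21.3 in Dux-KO QKO. Only the last was called, with 1.61 ± 0.14 (limma adjusted p = 2.14e-07). Serpini1, or neuroserpin, an inhibitor of tissue plasminogen activator, stayed between 1.91 and 4.82 TPM in the first table and was called nowhere there. It fell in the second table from 7.20 and 6.57 TPM in control to 2.40 and 3.23 in Setdb1-KO, 3.09 and 2.49 in G9a Suv39h1/2-TKO and 2.45 and 2.46 in QKO. The call in Setdb1-KO, at -1.06, was lost without control replicate 1 (adjusted p = 0.0702) or Setdb1-KO replicate 1 (adjusted p = 0.0962). The call in G9a Suv39h1/2-TKO, also at -1.06, was lost without its replicate 2 (-0.95), with median-ratio scaling (-0.95) and with the class of Snhg levels as a term (-0.87).

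In the clade a cluster of chromosome 12, Serpina3m, a copy of the antichymotrypsin type (chr12:104338486-104394257), was the only member with sizeable RNA in all groups. It was at 12.7 and 12.2 TPM in control and at 2.42 and 3.03 TPM in Suv39h1/2-DKO, a change of -1.85 ± 0.11 (limma adjusted p = 1.56e-07) and the single serpin call of that comparison. In every other first-table group but G9a Suv39h1/2-TKO, which stood at 11.3 and 11.2 TPM, it was above control. It reached 22.2 and 24.1 TPM in Setdb1-KO, 23.1 and 26.4 in G9a-KO, 30.3 and 30.2 in G9a Setdb1-DKO, 38.5 and 36.2 in QKO and 52.6 and 55.5 in Dux-KO QKO. Of these, the double, quadruple and Dux-KO quadruple knockouts were called, at 1.22 ± 0.11, 1.52 ± 0.11 and 2.04 ± 0.11. Without doxycycline, Serpina3m of the second table was at 7.55 and 7.11 TPM in control, 16.8 and 22.2 in G9a-KO (1.29 ± 0.22, adjusted p = 0.000241, a call that the first table's G9a-KO did not reach), 31.6 and 38.3 in G9a Setdb1-DKO (2.10 ± 0.22, adjusted p = 3.2e-07) and 39.0 and 37.7 in QKO (2.24 ± 0.22, adjusted p = 1.34e-07). Whether the G9a-KO change differs between the tables was not tested. The Suv39h1/2-DKO libraries there, at 3.13 and 5.15 TPM, were below both controls, but the gene was not called.

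The remaining clade a members were low. Serpina3h, annotated as a pseudogene at chr12:104247905-104253669, was at 0 and 0.0324 TPM in control and at 0 in both Setdb1-KO libraries. It was at 0.137 and 0.545 TPM in G9a-KO, 3.07 and 3.26 in G9a Setdb1-DKO, 0.287 and 0.623 in QKO and 2.44 and 2.58 in Dux-KO QKO. The double knockout was called at 2.04 ± 0.14 (limma adjusted p = 2.93e-08). Serpina3h in the second table was at 0.0344 and 0 TPM in control, 0 and 0.0385 in Setdb1-KO, 0.4995 and 0.657 in G9a-KO, 4.72 and 3.59 in G9a Setdb1-DKO (2.33 ± 0.14, adjusted p = 2e-10) and 2.84 and 2.50 in QKO (1.85). Serpina1c, a copy of the gene for antitrypsin, which blocks neutrophil elastase, was listed at 0 in both controls of the first table. It was at 0.654 and 0.709 TPM in Setdb1-KO, 1.82 and 1.87 in G9a Setdb1-DKO, 3.67 and 1.66 in QKO and 7.35 and 5.31 in Dux-KO QKO, and was called in the last 3. In the 10 libraries without Setdb1 Serpina1c ran from 0.591 to 7.35 TPM, and in the 8 with Setdb1 from 0 to 0.0524 TPM. Its close copy Serpina1b was tested in the second table in its place and was called only in QKO, at 1.05 and 1.01 TPM, with both controls listed at 0. Serpina1b reached 1 TPM there only in libraries of QKO, so it entered the test only through that group. Serpina3k was called in Dux-KO QKO of the first table, at 2.80 and 2.13 TPM against 0.154 and 0.584 in control. It was also called in G9a Setdb1-DKO and QKO of the second, where both controls were listed at 0.

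Near-identical copies limit these values. Of the 100-base stretches of its transcripts, Serpina1c shares 58.5% with other genes, chiefly Serpina1a, Serpina1b and Serpina1e. Its reads and theirs could therefore be split between them in the authors' counting. The gene models of Serpina3k and Serpina3m overlap, as do those of Serpina1b and Serpina1d. Serpina3m shares 6.09% of its stretches, chiefly with Serpina3k, and Serpina3h shares 3.60%. Serpinb9f and Serpinb9g share 52.3% and 38.5% of theirs, chiefly with each other and with Gm11397. Serpinb9b, Serpinb6c, Serpinb6a, Serpine2, Serpinf1, Serping1 and Serpinh1 share none.

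**Figure D4:**
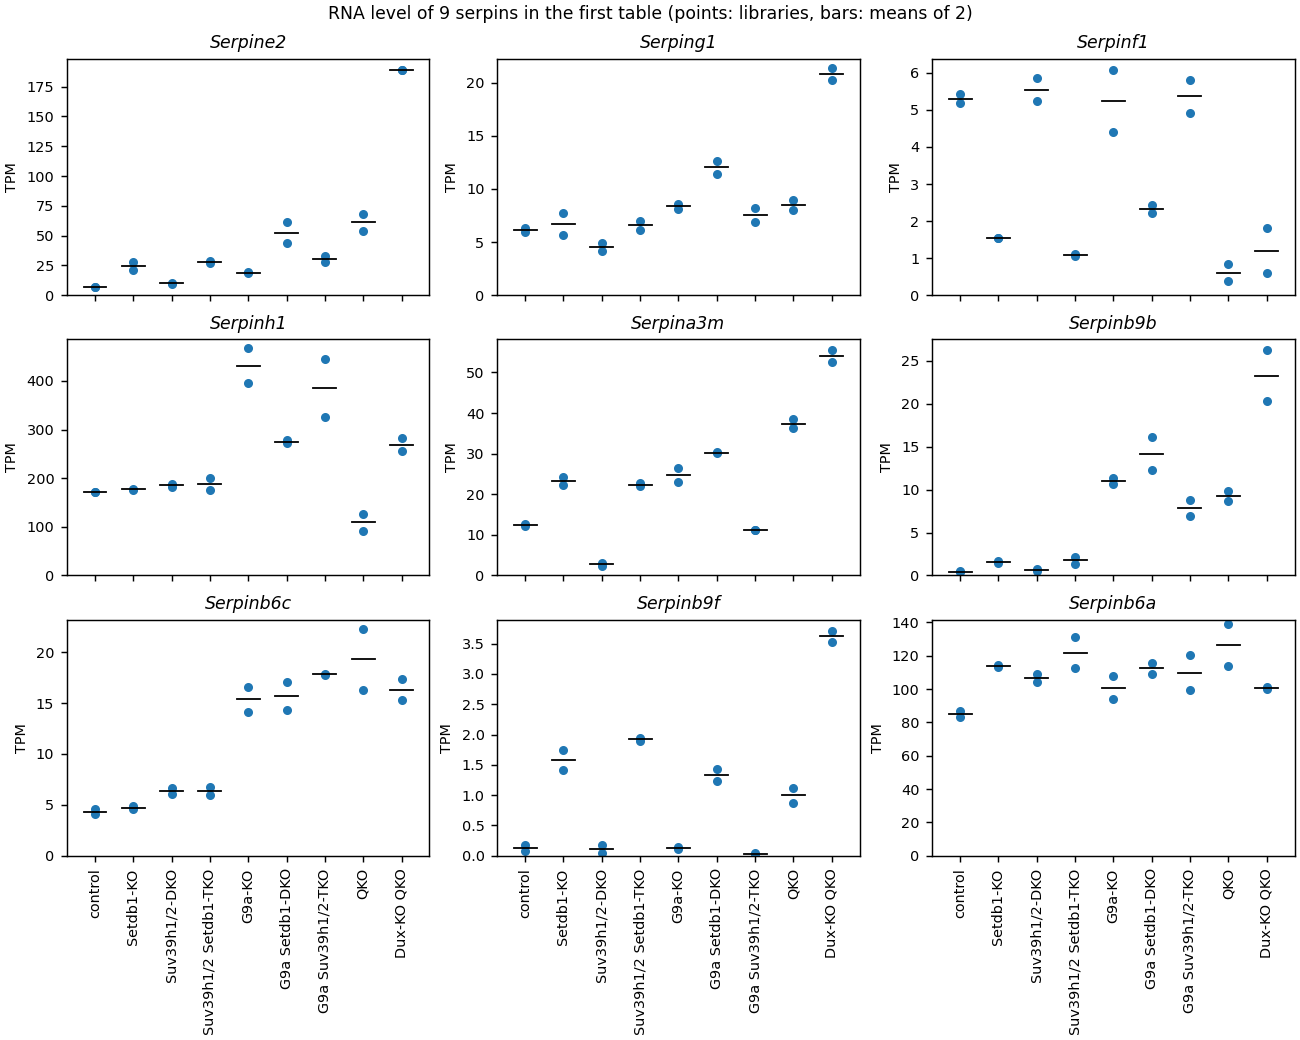
Level in TPM (vertical axis, linear and starting at 0, with its own range in each panel) of 9 serpins in each of the 18 libraries of the first table, 1 point per library, by genotype. Serpinb9b and Serpinb6c are higher in all 10 libraries without G9a, Serpinf1 is lower in all 10 without Setdb1, and Serpine2 reaches 189 TPM in both Dux-KO QKO libraries.

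Among the intracellular inhibitors of clade b, Serpinb9b followed G9a. Genes of the Serpinb9 type are relatives of the inhibitor of granzyme B, the killer protease of cytotoxic lymphocytes. Serpinb9b (chr13:33027416-33041884) was at 0.344 and 0.487 TPM in control, 0.478 and 0.707 in Suv39h1/2-DKO, 1.65 and 1.49 in Setdb1-KO and 1.37 and 2.20 in Suv39h1/2 Setdb1-TKO. It was at 10.6 and 11.4 TPM in G9a-KO, 16.1 and 12.3 in G9a Setdb1-DKO, 6.97 and 8.76 in G9a Suv39h1/2-TKO, 8.71 and 9.80 in QKO and 26.2 and 20.3 in Dux-KO QKO. The 10 libraries without G9a (6.97 to 26.2 TPM) did not overlap the 8 with it (0.344 to 2.20 TPM). The change was 3.09 ± 0.18 in G9a-KO (limma adjusted p = 7.81e-09), 3.41 ± 0.18 in G9a Setdb1-DKO (adjusted p = 9.07e-10) and 4.09 ± 0.18 in Dux-KO QKO (adjusted p = 1.03e-10). Across the second table, doxycycline libraries included, the 16 libraries without G9a ran from 3.35 to 16.5 TPM and the 16 with it from 0.0381 to 1.82 TPM. The change there was 3.12 ± 0.28 in G9a-KO (adjusted p = 1.45e-07) and 3.67 ± 0.28 in G9a Setdb1-DKO (adjusted p = 5.42e-09).

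Serpinb6c (chr13:33879816-33905708, minus strand), of the type that inhibits cathepsin G, separated the libraries in the same way. It ran from 14.1 to 22.3 TPM in the 10 first-table libraries without G9a and from 4.07 to 6.71 TPM in the 8 with it. The second table's values ran from 18.8 to 38.9 TPM in 16 libraries and from 3.75 to 14.9 TPM in the other 16. The change in G9a-KO was 1.62 ± 0.15 in the first table (limma adjusted p = 9.78e-07) and 1.51 in the second (adjusted p = 2.7e-07). The G9a Setdb1-DKO libraries, at 17.1 and 14.3 TPM, overlapped those of G9a-KO, at 14.1 and 16.6 TPM. Without doxycycline, the second table's groups that lack Setdb1 and keep G9a were below its controls, with 8.21 and 8.14 TPM in Setdb1-KO and 4.64 and 3.75 in Suv39h1/2 Setdb1-TKO against 13.1 and 12.5 in control. The groups that lack both were above them, with 25.6 and 24.7 TPM in G9a Setdb1-DKO and 19.7 and 20.9 in QKO. The triple knockout was called there, at -1.41 (adjusted p = 2.39e-06), while the first table's triple knockout stood at 5.98 and 6.71 TPM against 4.07 and 4.57 in control.

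Of the 19 tested serpins, 3 in each table were higher in every library without G9a than in any library with it: Serpinb9b, Serpinb6c and Serpina3h. Over all tested genes the share was 5.32% in the first table and 2.42% in the second. For Serpina3h the margin in the first table was narrow, 0.0378 TPM against 0.0372 TPM, and in the second it was 0.264 against 0.0411 TPM. For Setdb1, 4 of 19 were higher without it in the first table, Serpina1c, Serpinb9f and Serpinb9g among them, beside 4.04% of all tested genes, and none in the second, beside 0.637%. No serpin separated the libraries by Suv39h1/2 in either table, beside 0.0361% of all tested genes in the first and 0.897% in the second. Libraries of different genotypes within such a class are not replicates of each other.

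Serpinb9f and Serpinb9g, whose upstream stretches are near copies, rose in the Setdb1-lacking groups of the first table. Serpinb9f (chr13:33324077-33335370) was at 0.174 and 0.0704 TPM in control, 1.74 and 1.41 in Setdb1-KO, 1.901 and 1.94 in Suv39h1/2 Setdb1-TKO, 1.44 and 1.24 in G9a Setdb1-DKO, 0.877 and 1.12 in QKO and 3.71 and 3.53 in Dux-KO QKO. All 10 libraries without Setdb1 (0.877 to 3.71 TPM) were above the 8 with it (0 to 0.179 TPM), G9a-KO at 0.149 and 0.111 TPM among the latter. Its change was 1.20 ± 0.12 in Setdb1-KO (limma adjusted p = 3.59e-06) and 2.04 ± 0.12 in Dux-KO QKO (adjusted p = 2.39e-09). Serpinb9g (chr13:33484790-33496004) ran from 0.456 to 1.84 TPM without Setdb1 and from 0 to 0.110 TPM with it, and rose by 1.14 ± 0.22 in Setdb1-KO (adjusted p = 0.00148), a change of 0.92 without Setdb1-KO replicate 2. Second-table Serpinb9f was at 0.835 and 0.798 TPM in Setdb1-KO without doxycycline and was not called, against 0.0747 and 0.0365 in control. It was called in G9a Setdb1-DKO, at 1.65 and 1.63 TPM, and in QKO, at 2.04 and 2.39 TPM. Serpinb9e, the third near copy (chr13:33249612-33260850), was listed at 0 in both controls of each table and reached 1.27 and 2.33 TPM in Dux-KO QKO and 1.40 and 1.02 TPM in the second table's QKO. Serpinb9b and the near copies lie in the same cluster, and Serpinb9b on the one hand and Serpinb9f and Serpinb9g on the other separated the first table's libraries by different enzymes.

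The other clade b genes of chromosome 13 were either steady or low. Serpinb6a, an inhibitor of cathepsin G (chr13:33917918-34002794), was the most abundant clade b gene at 83.4 to 139 TPM in the first table and 115 to 188 TPM in the second, and was called in no comparison. Nqo2, 1110046J04Rik and Ripk1 start inside the Serpinb6a gene model, and the sources used here do not say whether strand was used in counting. Serpinb9 itself was at 0.0691 and 0 TPM in the first table's control, 1.10 and 1.40 in QKO and 2.09 and 1.39 in Dux-KO QKO, and was called in both and in the second table's G9a Setdb1-DKO and QKO. Serpinb6b was called in QKO, at 1.02 and 0.988 TPM, and in Dux-KO QKO, at 1.503 and 2.60 TPM, with both controls listed at 0. The Serpinb6b call in QKO was lost without QKO replicate 1 (0.991), and the second table's Serpinb9 call in G9a Setdb1-DKO without that group's replicate 2 (0.955) or without the 6 libraries high in Snhg genes (0.94). Leaving out the 6 kept only 1 library of that control and 1 of G9a Setdb1-DKO. Serpinb1a peaked at 1.702 TPM in the first table and was called nowhere.

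The members without protease inhibition went separate ways. Serpinf1, the secreted factor PEDF (chr11:75409769-75422701), was the only serpin to separate libraries by Setdb1 in both tables. It ran from 0.376 to 2.43 TPM in the 10 first-table libraries without Setdb1 and from 4.41 to 6.09 TPM in the 8 with it. Second-table values ran from 0.723 to 3.14 TPM in 16 libraries without Setdb1 and from 4.37 to 16.4 TPM in 16 with it. Over all tested genes, 3.49% in the first table and 0.217% in the second were lower in every library without Setdb1. The change in Setdb1-KO was -1.31 ± 0.22 in the first table (limma adjusted p = 0.000378) and -1.73 in the second (adjusted p = 3.49e-05). In QKO it was -1.99 ± 0.22 in the first table (adjusted p = 2.85e-06), while the second table's QKO, at 2.87 and 2.46 TPM against 4.37 and 5.77 in control, was not called. The second table's Suv39h1/2-DKO call, at 11.96 and 10.3 TPM, was lost without control replicate 1 (adjusted p = 0.117) or without Suv39h1/2-DKO replicate 1 (adjusted p = 0.0909).

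Serpinh1, the collagen chaperone HSP47 of the endoplasmic reticulum (chr7:99345376-99353239), was the most abundant serpin of the controls. Against the first table's control it was called higher only where G9a was lost and Setdb1 kept. It stood at 172 and 172 TPM in control, 178 and 177 in Setdb1-KO, 467 and 395 in G9a-KO, 445 and 326 in G9a Suv39h1/2-TKO, 272 and 278 in G9a Setdb1-DKO, 127 and 91.9 in QKO and 282 and 255 in Dux-KO QKO. G9a-KO (1.32 ± 0.15, limma adjusted p = 1.05e-05) and G9a Suv39h1/2-TKO (1.15) were called higher. The latter was 0.92 without its replicate 1, below the call. The changes of 0.68 in G9a Setdb1-DKO and -0.66 in QKO (adjusted p = 0.0021 for each) did not reach the size needed for a call. Second-table Serpinh1 replicates spread widely, at 218 and 433 TPM in G9a-KO and 355 and 228 in Suv39h1/2-DKO against 174 and 189 in control, and nothing was called. QKO stood at 85.2 and 95.8 TPM there, a change of -0.995 (adjusted p = 0.0055), just short of the call.

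The genes that serve collagen folding beside Serpinh1 were counted from a list of 28, of which 24 were tested in the first table. In G9a-KO 8 rose and 1 fell, where 5.52% of all tested genes were called higher and 3.74% lower. Col5a2 went from 0.220 to 8.79 TPM on average (3.00 ± 0.12), and Col4a1 (1.99) and Col4a2 (1.95), the chains of basement membrane collagen, rose as well. Fkbp14, a folding isomerase, fell by 1.17. The abundant P4hb and Ppib were not called, at 0.52 and 0.23. In QKO, with 10.1% and 5.42% over all tested genes, 4 rose and 2 fell, with Plod2 (1.78) and P4ha2 (1.47), which hydroxylate collagen, higher and Fkbp10 (-1.64) lower. In Setdb1-KO Plod2 (1.78) was the only call, beside 4.12% of all tested genes called higher. Only Col5a2 (2.52) and Col2a1 (1.54) of 25 tested were called in the second table's G9a-KO, both higher, beside 3.07% of all tested genes.

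The joint loss of Setdb1 and G9a was compared with the sum of the single losses on the log2(TPM+1) scale. Of the 19 tested serpins, 1 was called, Serpina3h at 1.67 ± 0.20 (limma adjusted p = 0.000122), beside 4.18% of all tested genes (2.39% higher, 1.8% lower). Both Setdb1-KO libraries and 1 control library of Serpina3h were listed at 0, so this difference depends on the pseudocount. Serpina3m deviated the other way, at -0.57 ± 0.15 (adjusted p = 0.0311), and Serpinh1 at -0.69 ± 0.22 (adjusted p = 0.0603), neither of which was a call.

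Taking the blocks side by side, the clusters and the dispersed genes differed in their medians without a test. In the first table's QKO the median change was 1.09 for the 4 tested clade a genes, 0.83 for the 9 clade b genes of chromosome 13 and 0.25 for the 6 dispersed genes, beside -0.05 for all tested genes. In Dux-KO QKO against control the medians were 1.91, 1.46 and 1.13 beside 0.15, with 4 of 4, 7 of 9 and 3 of 6 called higher. Of all tested genes 16.8% were called higher in that comparison. For the second table's QKO they were 1.64, 1.01 and -0.79 beside -0.11, with 4 of 4, 5 of 9 and 2 of 6 called higher. There 6.59% of all tested genes were called higher, and Serpina1b and Serpinb9e entered the test only through QKO libraries. These medians hold genes listed at 0 in control, whose differences rest on the pseudocount, and cluster genes entered the test mostly through knockout libraries. In the single knockouts the first table's medians were 0.59, 0.42 and 0.07 in Setdb1-KO and 0.40, 0.24 and 0.30 in G9a-KO.

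Genes that flank or lie within the clusters but are no serpins were called in some comparisons. Around the chromosome 13 cluster, 8 of 12 listed neighbours were tested in the first table, and the only calls were Slc22a23, at 1.02 in Dux-KO QKO against QKO, and Ripk1, at 1.05 in the second table's QKO. Around the chromosome 12 cluster 3 of 5 were tested in the first table. Ifi27, an interferon-induced gene, was called in Dux-KO QKO against control (1.85) and against QKO (1.06) and in the second table's G9a Setdb1-DKO (1.07). Gsc, a homeobox gene, was called in Dux-KO QKO against control (1.14). Kdsr and Vps4b beside the chromosome 1 cluster were tested and never called.

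Removing Dux from the QKO asked which changes need that factor. Of the 19 tested serpins, 9 were called higher and none lower in Dux-KO QKO against QKO, beside 6.54% of all tested genes called, 4.71% higher and 1.83% lower. Dux itself was at 25.7 and 21.8 TPM in QKO and at 0 in both Dux-KO QKO libraries. Serpine2 went from 68.0 and 54.0 to 189 and 189 TPM (1.62 ± 0.16, limma adjusted p = 3.08e-06), and Serpinh1 from 127 and 91.9 to 282 and 255 TPM (1.31 ± 0.15, adjusted p = 1.73e-05). For both genes, the 2 libraries were above the 2 QKO libraries. Also among the 9 were Serpina3h (1.28), Serpinb9b (1.24), Serpinb9f (1.21), Serping1 (1.21), Serpinb9e (1.15) and Serpina1c (1.04). Serpinb9e reached 1 TPM in only 2 first-table libraries, both of Dux-KO QKO. It entered the test only through that group, so its higher call is partly built in. All tested genes had a median of 0.22 in this comparison. With median-ratio scaling 6 of the 9 remained calls, and Serpina1c (0.84), Serpinb9b (0.999) and Serping1 (0.97) fell below the size needed. Serpina1c also did so without QKO replicate 2 (0.63) or Dux-KO QKO replicate 1 (0.84), and Serpinb9e without Dux-KO QKO replicate 2 (0.88). The share of higher genes among all called was 72.1% as deposited and 50.4% after that scaling. Serpinb6c, at 17.3 and 15.2 TPM, and Serpinb6a, at 101 and 99.8 TPM, were not called.

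Markers of other cell types moved in some of the same groups. The 17 markers of primitive endoderm, the yolk sac lineage, summed to 496 and 481 TPM in the first table's control, 494 and 599 in Setdb1-KO, 2189 and 1915 in G9a-KO, 851 and 672 in QKO and 1834 and 1751 in Dux-KO QKO. Of the 15 tested, 15 were called higher in G9a-KO, 13 in G9a Setdb1-DKO, 3 in QKO and 11 in Dux-KO QKO against QKO. The shares of all tested genes called higher in these comparisons were 5.52%, 9.58%, 10.1% and 4.71%. Ttr was listed at 0 in control and Setdb1-KO. The second table's sum without doxycycline was 900.3 and 1084 TPM in control, 1445 and 1964 in G9a-KO, 782 and 1016 in G9a Setdb1-DKO and 574 and 704 in QKO, with 5, 0 and 1 of 16 called higher in these 3 knockouts. Over all tested genes 3.07%, 7.35% and 6.59% were called higher in them. Serpinb9b, Serpine2 and Serpina3m were called higher than control in the first table's Dux-KO QKO and in the second table's G9a Setdb1-DKO and QKO. The part of such cells in the serpin values of any group was not tested. In bulk RNA more cells of a type and more RNA per cell cannot be told apart.

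The 15 trophoblast markers summed to 34.9 and 35.9 TPM in control, 71.9 and 76.7 in Setdb1-KO, 74.3 and 63.1 in QKO and 166 and 165 in Dux-KO QKO. The placental markers Tpbpa, Prl3d1 and Prl2c2 were listed at 0 in all 4 groups. The 10 hepatocyte markers summed to 1.55 and 1.43 TPM in control and 10.8 and 12.02 TPM in Dux-KO QKO, with Alb, Apoc3, Fga and Fgb listed at 0 in control and Apoc3 in Dux-KO QKO. The 7 blood markers summed to 5.37 and 5.93 TPM in control and 23.9 and 21.7 TPM in Dux-KO QKO. The 7 markers of the 2-cell stage, whose genes DUX activates, summed to 66.7 and 73.3 TPM in control, 5242 and 5212 in QKO and 62.8 and 64.8 in Dux-KO QKO. Their part in the serpin values was not tested.

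Doxycycline, which switches on the Dux transgene, called no serpin in any of the 8 second-table lines. The transgene rose from group means of 0.786 to 3.62 TPM to means of 29.2 to 65.3 TPM. By limma 0 of 19 serpins were called in each line. The share of all tested genes called was 0.181% in control, 0.166% in Setdb1-KO, 0.449% in Suv39h1/2-DKO, 0.955% in G9a-KO, 0.246% in Suv39h1/2 Setdb1-TKO, 1.05% in G9a Setdb1-DKO, 0.456% in G9a Suv39h1/2-TKO and 0.413% in QKO. At an unadjusted p under 0.05, 1 serpin was counted in control beside 6.04% of all tested genes, 1 in Setdb1-KO beside 2.04%, 0 in Suv39h1/2-DKO beside 6.25% and 2 in G9a-KO beside 8.71%. There was 1 in Suv39h1/2 Setdb1-TKO beside 1.59%, 6 in G9a Setdb1-DKO beside 20.5%, 1 in G9a Suv39h1/2-TKO beside 8.68% and 6 in QKO beside 16.1%. No other tool was run. Where lines share a dose label their responses were set against each other, in 6 comparisons, and no serpin was called in any of them, with 0 to 2 at an unadjusted p under 0.05 beside 0.586% to 4.32% of all tested genes.

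Several serpins moved by less than the size needed for a call. Serpine2 was lower with doxycycline in 6 of the 8 lines with no overlap between the 2 libraries of each state, and Serpinb9b in 5, while Serpinf1 was higher in 5 in this way. Over all tested genes, 6.43% were lower so in at least 6 lines, 13.8% were lower in at least 5 and 2.42% were higher in at least 5. The median of all tested genes also shifted with doxycycline, at -0.15 in control, -0.22 in G9a Setdb1-DKO and -0.21 in QKO. In the G9a Setdb1-DKO, Serpina3k went from a mean of 1.87 to 0.620 TPM (-0.83 ± 0.15, limma adjusted p = 0.00413) and Serpina3h from 4.15 to 2.18 TPM (-0.71 ± 0.14, adjusted p = 0.0107). Without the 6 libraries that stood apart in Snhg levels, the count of calls in that line changed. That fit had only 1 library in each doxycycline state of the line, so the new count is not given.

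**Figure D5:**
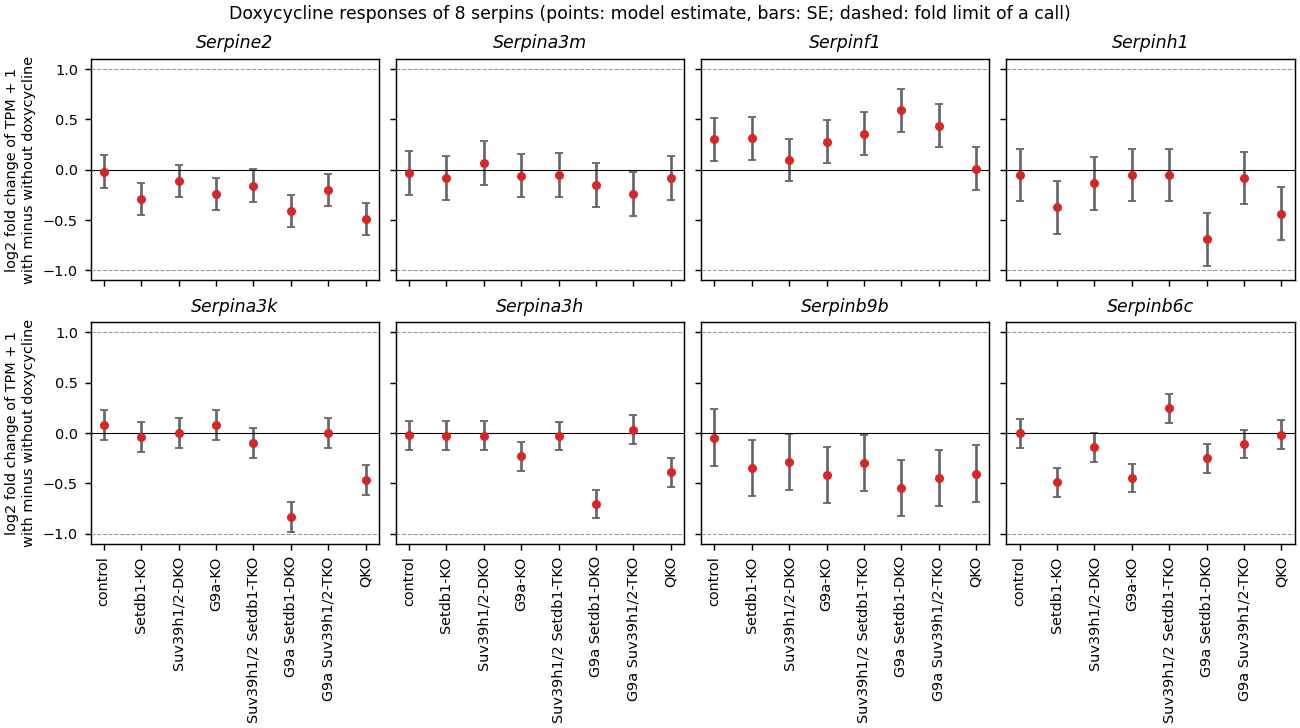
Change with doxycycline on the log2(TPM+1) scale (vertical axis; point with SE from limma) of 8 serpins, 1 panel each, in the 8 second-table lines (horizontal axis). The lowest point is Serpina3k in G9a Setdb1-DKO, at -0.83, and no point reaches the size of 1 needed for a call.

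The proteases that serpins trap, and the receptors that clear the complexes, were counted from a list of 55, of which 32 were tested in the first table. In Setdb1-KO, where 4.12% of all tested genes were called higher and 2.16% lower, 2 rose, Mmp9, a gelatinase (1.64), and Ctsc, the cathepsin that activates granule proteases (1.54), while the clearance receptor Lrp2 fell (-1.30). In G9a-KO 7 rose and 3 fell, beside 5.52% and 3.74% of all tested genes. Plat, tissue plasminogen activator and a target of Serpine2, went from 1.06 to 10.3 TPM on average (2.45 ± 0.19), Ctsc rose by 2.28 and F2r, the thrombin receptor, by 1.53. In QKO 7 rose and 2 fell, beside 10.1% and 5.42%, led by Klk1, a kallikrein (3.10), Ctsc (2.85) and Ctsh (1.83). In Dux-KO QKO against QKO 9 rose and none fell, beside 4.71% and 1.83%, led by Plat (1.94), F2, which encodes prothrombin (1.60), and Prss8 (1.28), with a median of 0.74 over the list beside 0.22 over all genes. Ctsl, the most abundant of these, was not called there (0.08) or in QKO (0.65). Of 30 tested in the second table, 4 rose and 8 fell in QKO, the clearance receptor Lrp1 among the latter (-1.74), beside 6.59% of all tested genes called higher and 7.42% lower.

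Protease inhibitors of other families were counted from a list of 48, of which 22 were tested in the first table. Setdb1-KO had 2 higher calls, beside 4.12% of all tested genes: Wfdc15a, of the whey acidic protein type (1.38), and the stefin Stfa1, which was listed at 0 in control and averaged 2.29 TPM. G9a-KO had 6 higher and 3 lower, beside 5.52% and 3.74%, led by Wfdc15a (3.55), Spink1 (3.18) and Spink10 (2.77), the latter pair being Kazal-type inhibitors. QKO had 7 higher and 1 lower, beside 10.1% and 5.42%, and Wfdc15a again led the genes with a measurable control (3.48). In Dux-KO QKO against QKO 3 rose and 1 fell, beside 4.71% and 1.83%. The metalloprotease inhibitors Timp3 (1.903) and Timp2 (1.67) rose, and the cystatin Cst9 fell (-1.75). Spint2 and Tfpi, the most abundant members, were called in none of Setdb1-KO, QKO or Dux-KO QKO against QKO, with changes between -0.32 and 0.41.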

How the data were processed

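The authors deposited 2 tables of TPM values, normalised separately, and all tests were made within a table. Per the labels' protocols, RNA from an AllPrep kit went into TruSeq stranded mRNA libraries, read from both ends on a NovaSeq instrument. Per the submitters' processing notes, the mm10 build was used with RSEM 1.3.1, SAMtools 1.9, STAR 2.7.10b and Bowtie2 2.3.4.1. What each did, the annotation and how multimapping reads were handled: not given in the sources used here. TPM values keep no depth, and reads that fit several copies of a gene can be split between them.

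Values were tested as log2(TPM+1) with limma 3.58.1 (R 4.3.3) with a trend of variance on mean, all groups of a table in 1 model, and Benjamini-Hochberg adjustment over the 13862 genes of the first and 13817 of the second table with at least 1 TPM in 2 libraries. The Dux transgene and reporter rows were left out of the tests. The script was tested on simulated data. Counts cover all tested serpins, of which 1 is not reported here by itself. The members and gene lists were chosen with earlier results of these data known. Named were every serpin called in a genotype or doxycycline comparison or above 20 TPM, and from each list up to 3 called genes and the 2 most abundant uncalled ones. Full values are given for serpins that changed by 2 or more, and for others that separated the libraries by enzyme. Positions are from GENCODE M21 (GRCm38, the assembly of mm10). Alternatives were a pseudocount of 0.1, no filter, median-ratio scaling, the replicate block, leaving out each library, and, chosen after seeing the data, the 6 libraries high in Snhg genes left out or their class as a term.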

Additional observations from a re-analysis of the deposited data

Results flagged for a closer look

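Serpina3h differed between the effect of Setdb1 loss in cells with G9a and in cells without it, by the interaction term of the first table's model: the difference of differences was 1.67 ± 0.20 (SE) on the log2(TPM+1) scale, with a limma adjusted p of 0.000122 and 2 libraries in each of the 4 groups. Both G9a Setdb1-DKO libraries (3.07 and 3.26 TPM) were above all of control, Setdb1-KO and G9a-KO. The Setdb1-KO libraries and 1 control library were listed at 0.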

How the results depend on the processing

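Counts of called serpins were recomputed in all 31 comparisons, and no direction reversed. Without the filter, with median-ratio scaling and with the replicate block the count stayed within 1.5 times in 31 of 31 comparisons. With the replicate block the G9a Setdb1-DKO of the first table, for example, had 9 called serpins. The labels do not say whether replicate numbers pair the samples. Between groups, differences of replicate 1 and 2 correlated at -0.0585 to 0.622 in the first table (median 0.268, 25 of 36 pairs over 0.1). In the second they correlated at -0.647 to 0.748 (median 0.124, 66 of 120). A part shared by same-numbered libraries is therefore possible. The main tests, those of doxycycline included, used no pairing, and pairing within a line was not tested.

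A pseudocount of 0.1 raised the count from 5 to 10 in Setdb1-KO, from 1 to 2 in Suv39h1/2-DKO, from 4 to 8 in G9a-KO, from 4 to 9 in Suv39h1/2 Setdb1-TKO, from 8 to 13 in QKO and from 1 to 2 in the interaction (first table). In the second table it raised it from 3 to 9 in Setdb1-KO, from 3 to 6 in G9a-KO, from 2 to 4 in Suv39h1/2 Setdb1-TKO and from 3 to 7 in G9a Suv39h1/2-TKO, since low genes then differ more on the log scale. Without the 6 Snhg-high libraries, or with their class as a term, the second table's Suv39h1/2-DKO had 0 calls in place of 1. Leaving them out changed the count for doxycycline in G9a Setdb1-DKO and for its difference from Suv39h1/2-DKO. That fit had only 1 library in each doxycycline state of G9a Setdb1-DKO, so the new counts are not given. Leaving out 1 library gave 0 to 2 calls in the second table's Suv39h1/2-DKO (0 without control replicate 1 or its own replicate 1, 2 without its replicate 2) and 3 to 5 in its G9a-KO (5 without its replicate 1). The cause was not tested.

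Of 93 gene values, all kept their call with the pseudocount of 0.1, without the filter and with the block. Scaling took 7 below a change of 1, the lowest being 0.84 for Serpina1c in Dux-KO QKO against QKO. It moved the median of all genes by -0.216 in that comparison and by 0.120 in Setdb1-KO, where the share of higher genes among all called went from 65.6% to 77.9%. In the second table that share went from 15.3% to 38.9% in Suv39h1/2-DKO, from 38.5% to 53.9% in G9a-KO, from 33.0% to 51.7% in Suv39h1/2 Setdb1-TKO, from 45.2% to 56.3% in G9a Suv39h1/2-TKO, from 47.0% to 57.3% in QKO and from 71.7% to 92.3% for doxycycline in G9a Setdb1-DKO. Leaving out 1 library lost 20 of 372 gene calls. Depth is unknown, so no floor can be set for genes listed at 0.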
